A study of Homo sapiens with 30 samples.

Results

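The D3 difference of unexposed iR cells was compared between RSRP1 knockout and wild-type cells, in 12 of the 30 libraries of an RNA sequencing study of A549, an established human lung adenocarcinoma line. The 12 libraries form 4 groups of 3, taken by their labels: the knockout with D3 (iR_KOA_D3_NE), the knockout without D3 (iR_KOA_NE), the wild type with D3 (iR_WTA_D3_NE) and the wild type without D3 (iR_WTA_NE). All 12 carry the label part iR and had no magnetic field exposure. The sources used here do not explain iR or D3, so both are kept as names. The labels do not say how RSRP1 was disrupted or whether the knockout cells are 1 clone or a pool, so a property of such a clone and the loss of RSRP1 cannot be told apart. Nor do they say whether libraries of a group came from separate cultures. The p-values rest on the spread of libraries within groups, estimated over all 30 libraries, and that spread may therefore be technical. In bulk RNA, fewer cells of a kind and less RNA per cell cannot be told apart.

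RSRP1 encodes a protein rich in arginine and serine, a composition known from splicing regulators. The comparison is an interaction: the log2 difference between cells with and without D3 in the knockout, minus the same difference in the wild type. A positive interaction means that the D3 difference was higher in the knockout, through a larger rise, a smaller fall or a change of sign. Several of the gene groups described here have well-known transcription factors behind them. E2F factors drive the genes that copy DNA, SREBP2 drives cholesterol synthesis when sterols are low, ATF4 drives amino acid supply in the integrated stress response, and HIF factors drive glycolysis when oxygen is low. Acute-phase and complement proteins are secreted, mostly by the liver and by epithelia, and A549 cells are known to make several of them.

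The values are FPKM (fragment counts scaled for transcript length and library size), 1 per gene and library. The 12 libraries held between 34620432 and 37261846 reads, recovered from the steps between low FPKM values, a ratio of 1.076. Within a group, libraries correlated at 0.996 to 0.998 across genes, against 0.932 to 0.988 between groups. Of the variance, 71.5% lay on a first component that separated the genotypes, and 19.1% on a second that separated the cells with D3 from those without. The 6 epithelial markers summed to 2070 to 2200 FPKM in the knockout with D3, 2450 to 2590 in the knockout without, 2110 to 2160 in the wild type with D3 and 2080 to 2280 in the wild type without. The epithelial sum was mostly KRT7, KRT8 and KRT18. Over the 12 libraries EPCAM lay at only 0.548 to 1.6 FPKM and KRT19 at 0.0194 to 22.4 FPKM. Among the markers of other cells, 1 of 7 matched leukocyte genes, CD68, reached 1 FPKM, and the leukocyte sum lay between 27.3 and 37.1 FPKM in every group. TYROBP, CLDN5 and ERG were listed at 0 in all 12 libraries, and the fibroblast sum, mostly ACTA2, did not exceed 21.0 FPKM. The 13 mitochondrially encoded messenger RNAs took 29.4% ± 1.2 of all FPKM in the knockout with D3, 24.6% ± 0.31 in the knockout without, 22.9% ± 0.43 in the wild type with D3 and 21.1% ± 1.1 in the wild type without (SD, n = 3 each). That share moved with both factors, and its part in the results was not tested beyond the 2 rescalings named below.

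RSRP1 (chromosome 1, 25242249 to 25338254, NCBI gene 57035) followed its labels. It had 5.84, 6.27 and 6.33 FPKM in the knockout with D3, against 7.63, 7.95 and 7.45 FPKM in the knockout without. Wild-type cells had 37.4, 41.7 and 37.4 FPKM with D3, against 48.5, 48.6 and 49.8 FPKM without. Every knockout library lay below every wild-type library. RSRP1 was lower with D3 in both genotypes, by a log2 difference of −0.28 in the knockout (adjusted p = 0.00026) and −0.33 in the wild type (adjusted p = 5.28e-05, limma). The difference between these changes was 0.05 ± 0.083 (SE, n = 3 per group, adjusted p = 0.77) and did not pass.

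The D3 difference differed between the genotypes for 2119 of the 12086 genes tested (17.5%, limma, Benjamini-Hochberg adjusted p under 0.05, two-sided). Of these, 627 (5.19%) had a positive and 1492 (12.3%) a negative interaction. The split depended on the scaling: median-of-ratios scaling gave 965 positive and 1051 negative calls, and quantile normalization 967 and 1085. Most interactions were modest, with a median size of 0.35 on the log2(FPKM + 1) scale among the genes that passed, and 37 genes reached 1 (18 positive, 19 negative). The median over all genes tested was −0.05. In the knockout 6485 genes (53.7%) passed the D3 test, 2315 higher (19.2%) and 4170 lower (34.5%), a split that became 3419 and 2930 under median-of-ratios scaling. In the wild type 5880 genes (48.7%) passed, 2697 higher (22.3%) and 3183 lower (26.3%), or 3126 and 2627 under that scaling.

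The 2119 genes fell into several patterns. In 749 of them the D3 difference passed with the same sign in both genotypes but differed in size: 409 fell more in the knockout, 184 rose more in the knockout, 116 rose less and 40 fell less. In 207 genes the D3 difference passed in both genotypes with opposite signs, 162 of them lower with D3 in the knockout and higher with D3 in the wild type. Rescaling left the size of that set at 174 (median of ratios) and 173 (quantile), with 109 and 116 in that direction. In 662 genes the D3 difference passed in the knockout and not in the wild type, in 485 the reverse held, and in 16 it passed in neither. The plot of D3 differences in both genotypes shows these patterns as distance from the diagonal.

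**Figure D1:**
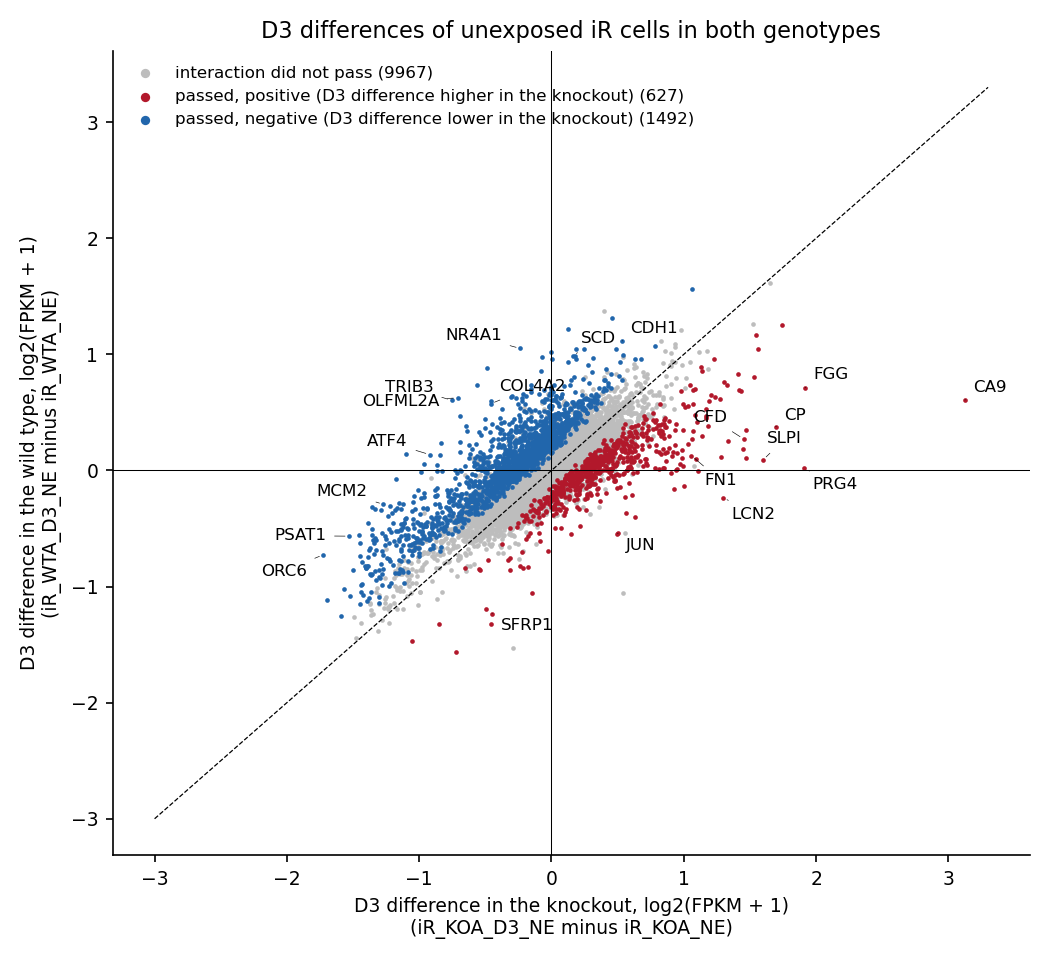
Each point is 1 of 12086 genes, with its D3 difference in the knockout on the x axis and in the wild type on the y axis, both in log2(FPKM + 1); the dashed line marks equal differences. The 627 genes with a positive interaction lie to the right of the line, led by CA9 (2.52), and the 1492 with a negative one to the left, with ORC6 and PSAT1 low in both genotypes and TRIB3, OLFML2A and NR4A1 lower with D3 in the knockout but higher in the wild type.

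Genes of DNA replication and S phase fell with D3 in both genotypes, and fell further in the knockout. All 38 genes on the list fell in the knockout, where 34.5% of all genes did, and all 38 fell in the wild type, where 26.3% did. The median difference was −1.17 in the knockout and −0.53 in the wild type, against −0.06 and −0.01 over all genes tested. The interaction was negative and passed for 37 of the 38, where 12.3% of all genes did so, and the list's median was −0.65. These 37 ranged from −1.0 to −0.25, and rescaling left the number at 37 both times.

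ORC6 (chromosome 16, 46689659 to 46698394), a subunit of the origin recognition complex that marks where replication starts, led the list. It had 4.43, 4.46 and 4.99 FPKM in the knockout with D3, against 17.5, 16.6 and 18.7 FPKM in the knockout without. The wild type had 12.6, 9.83 and 11.2 FPKM with D3, against 20.2, 19.3 and 17.9 FPKM without. The groups did not overlap in either genotype, and the 2 groups without D3 did overlap each other, so the genotypes stood apart only among the cells with D3. The log2 differences were −1.73 and −0.73, and the interaction was −1.0 ± 0.102 (SE, adjusted p = 8.22e-08). MCM2, a subunit of the helicase that unwinds the origin, had 14.5, 12.7 and 12.9 FPKM in the knockout with D3, against 32.8, 33.2 and 34.9 without, and in the wild type 31.4, 31.3 and 31.3 with D3, against 38.4, 37.5 and 39.9 without. The knockout with D3 was the one low group (−0.98 ± 0.0883, adjusted p = 1.02e-08). CDC6, which loads that helicase, had 5.97, 5.7 and 5.96 FPKM in the knockout with D3, against 16.8, 17.1 and 17.0 without, and 14.9, 14.5 and 14.6 in the wild type with D3, against 19.7, 20.9 and 20.6 without. Its libraries were tightly grouped, and its interaction of −0.94 had an adjusted p of 3.09e-11.

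E2F1 (chromosome 20, 33675477 to 33686385), a transcription factor of these genes, had 7.53, 7.24 and 6.84 FPKM in the knockout with D3, against 17.7, 17.5 and 19.4 without. In wild-type cells its levels were 13.2, 13.7 and 12.5 FPKM with D3, against 16.4, 15.5 and 17.5 without. E2F1 thus fell to 0.396 times its mean level without D3 in the knockout and to 0.797 times in the wild type, and the interaction was −0.92 ± 0.103 (adjusted p = 3.63e-07). DTL (chromosome 1, 212035748 to 212105013), the substrate receptor of a ubiquitin ligase that acts in S phase, had 4.42, 4.43 and 5.12 FPKM in the knockout with D3, against 13.9, 14.0 and 12.7 without, and 12.6, 12.9 and 12.6 in the wild type with D3, against 15.1, 16.9 and 16.2 without (−1.04 ± 0.0955, adjusted p = 1.21e-08). The exonuclease gene EXO1, which acts in DNA repair and recombination, showed the same order of groups, with 3.4, 3.23 and 3.56 FPKM in the knockout with D3, 10.5, 9.73 and 10.0 without, 8.84, 8.97 and 8.4 in the wild type with D3 and 11.0, 11.2 and 11.5 without (−1.0, adjusted p = 7.52e-10). DTL and EXO1 were among the 15 most negative interactions of all genes with at least 2 FPKM in both genotypes.

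Promoters of 3 of these genes are shown because the genes moved together and each holds a match to TTTNGCGC, a core of the E2F motif, searched on both strands of the 250 bases before the transcript start (RefSeq, GRCh38.p14). Capitals mark the match, and each sequence runs 5′ to 3′ along the strand of its gene.
ORC6, chr16:46689409-46689658, plus strand: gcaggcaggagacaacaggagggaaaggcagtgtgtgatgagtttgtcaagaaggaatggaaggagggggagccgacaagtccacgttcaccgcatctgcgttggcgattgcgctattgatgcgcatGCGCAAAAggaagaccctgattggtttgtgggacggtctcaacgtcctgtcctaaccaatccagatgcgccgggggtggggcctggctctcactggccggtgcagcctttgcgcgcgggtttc
E2F1, chr20:33686386-33686635, minus strand: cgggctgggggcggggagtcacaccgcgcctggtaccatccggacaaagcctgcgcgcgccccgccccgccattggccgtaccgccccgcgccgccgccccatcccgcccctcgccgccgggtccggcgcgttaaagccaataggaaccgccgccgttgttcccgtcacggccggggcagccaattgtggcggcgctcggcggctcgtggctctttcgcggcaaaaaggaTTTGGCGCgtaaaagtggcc
DTL, chr1:212035498-212035747, plus strand: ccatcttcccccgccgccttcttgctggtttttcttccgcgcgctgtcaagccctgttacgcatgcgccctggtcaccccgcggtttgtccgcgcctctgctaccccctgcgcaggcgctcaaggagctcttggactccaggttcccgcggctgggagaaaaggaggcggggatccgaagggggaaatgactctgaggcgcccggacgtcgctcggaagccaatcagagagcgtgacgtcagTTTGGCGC
The match in ORC6 lies on the opposite strand, 115 bases before the start, that in E2F1 12 bases before it, and that in DTL directly before it. The motif was found in 9 of the 32 promoters on hand of list genes with a negative interaction that passed, and in 248 of the 9885 promoters of tested genes (2.51%). The motif was chosen with the results known, and a match describes these letters and not a bound site.

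**Figure D2:**
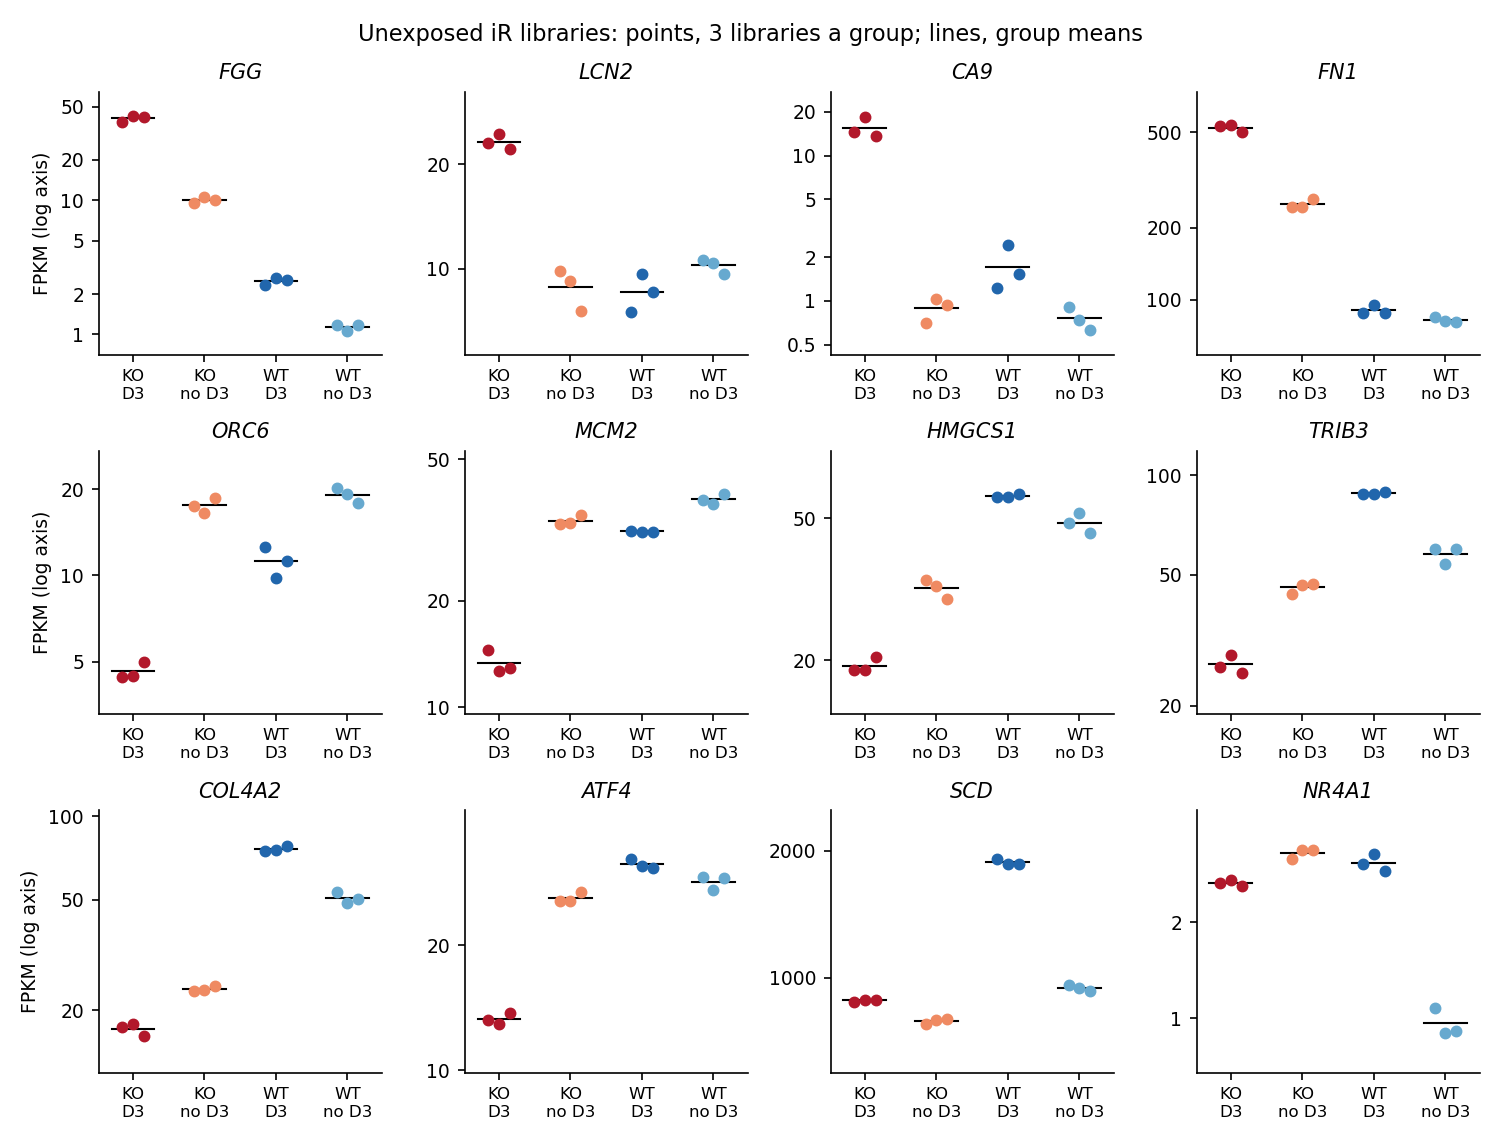
FPKM on a log axis for 12 genes in the 12 libraries, with 3 points per group and a line at the group mean; the groups run from the knockout with D3 and without to the wild type with D3 and without. The knockout with D3 stands highest for FGG, LCN2, CA9 and FN1 and lowest for ORC6, MCM2, HMGCS1, TRIB3, COL4A2 and ATF4, while SCD is highest in the wild type with D3 and NR4A1 lowest in the wild type without.

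Genes of G2 phase and mitosis also fell with D3, with smaller differences between the genotypes. All 35 fell in each, where 34.5% of all genes fell in the knockout and 26.3% in the wild type. Their median was −1.26 in the knockout and −1.08 in the wild type. The interaction was negative and passed for 14 of the 35 (12.3% of all genes) and positive for 1 (5.19%), with a list median of −0.17. Under median-of-ratios scaling 6 passed as negative, and under quantile normalization 11. FOXM1, a transcription factor of mitotic genes, fell further in the knockout, with 16.1, 16.7 and 16.3 FPKM with D3, against 40.1, 40.8 and 41.9 without, and in the wild type 34.4, 33.9 and 33.0 with D3, against 61.8, 58.9 and 63.9 without (−0.42 ± 0.0668, adjusted p = 4.58e-05). KIF20A, a kinesin needed to complete cell division, fell further in the wild type: its levels were 10.3, 10.1 and 9.16 FPKM in the knockout with D3, against 20.8, 21.5 and 22.1 without, and 15.9, 15.3 and 15.7 in the wild type with D3, against 44.3 to 45.8 without (0.42, adjusted p = 0.000289). Of 36 p53 target genes, 25 fell with D3 in the knockout (34.5% of all genes) and 21 in the wild type (26.3%). The interaction passed for 1 as positive (5.19% of all genes) and 3 as negative (12.3%), with a median of 0.01. GDF15, a secreted stress cytokine, fell in the knockout alone, with 31.1, 31.9 and 31.0 FPKM with D3, against 45.5, 46.6 and 49.5 without, and 28.6, 28.2 and 27.2 in the wild type with D3, against 29.7, 28.0 and 28.5 without (−0.54, adjusted p = 8.4e-06).

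Genes of cholesterol synthesis and sterol regulation mostly fell with D3 in the knockout and mostly rose in the wild type. In the knockout 24 of the 29 genes tested fell with D3 (34.5% of all genes) and 4 rose (19.2%), with a median of −0.33. In the wild type 2 fell (26.3%) and 18 rose (22.3%), with a median of 0.18. The interaction was negative and passed for 24 of 29, where 12.3% of all genes did so, and no positive one passed. The median was −0.59. Rescaling gave 23 (median of ratios) and 24 (quantile) negative calls, and left 20 falling in the knockout both times.

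ACAT2, which makes acetoacetyl-CoA at the first step of the pathway, fell in the knockout, with 16.6, 14.9 and 14.6 FPKM with D3, against 37.8, 35.4 and 34.8 without. Its levels in the wild type overlapped, at 45.5, 41.5 and 45.2 with D3, against 46.8, 45.1 and 47.1 without (−0.07, adjusted p = 0.397; interaction −1.10, adjusted p = 4.76e-09). HMGCS1, the HMG-CoA synthase of the next step, had 18.8, 18.7 and 20.4 FPKM in the knockout with D3, against 33.5, 32.2 and 29.6 without, and 57.5, 57.3 and 58.4 in the wild type with D3, against 48.6, 51.9 and 45.5 without. It fell in the knockout (−0.69) and rose in the wild type (0.24, adjusted p = 0.00273), for an interaction of −0.93 ± 0.0908. MSMO1, which removes methyl groups from sterol intermediates, had the same pattern with more spread (−0.50 in the knockout, 0.37 in the wild type, interaction −0.87, adjusted p = 0.000117).

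Fatty acid synthesis genes partly shared this pattern. Of 26 genes of fatty acid synthesis and lipid handling, 12 had a negative interaction that passed (12.3% of all genes) and 2 a positive one (5.19%), with a median of −0.17. FASN, the fatty acid synthase, had 50.9, 50.9 and 48.5 FPKM in the knockout with D3, against 70.4, 68.1 and 76.4 without, and 128, 129 and 134 in the wild type with D3, against 102, 91.5 and 94.3 without. It fell in the knockout and rose in the wild type (−0.95 ± 0.088, adjusted p = 1.6e-08). SCD, the desaturase that makes monounsaturated fatty acids, rose in both genotypes, but its mean with D3 was 1.12 times that without in the knockout and 1.98 times in the wild type. The SCD libraries held 879, 889 and 888 FPKM in the knockout with D3, 780.0, 795 and 799 without, 1910, 1860 and 1860 in the wild type with D3 and 960.0, 946 and 930.0 without (−0.83 ± 0.0439, adjusted p = 2.31e-12). ACSL1, which activates long-chain fatty acids, behaved likewise (0.15 in the knockout, 0.78 in the wild type), whereas FABP5, a fatty acid carrier, fell in both (−1.32 and −0.60). APOC1, an apolipoprotein, had 6.71, 6.2 and 4.21 FPKM in the knockout with D3, against 10.4, 9.13 and 13.2 without, and 51.7, 51.6 and 48.7 in the wild type with D3, against 43.3, 43.4 and 41.5 without. The wild-type groups of APOC1 did not overlap. Their difference (0.24) did not pass here (adjusted p = 0.11) but did under quantile normalization (0.33, adjusted p = 0.0273). The interaction passed (−1.08, adjusted p = 6.06e-05).

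Of the 41 tested genes for the unfolded protein response and the integrated stress response, 14 had a negative interaction that passed (12.3% of all genes) and 1 a positive one (5.19%), with a median of −0.20 and with 13 and 14 negative under the rescalings. In the knockout 11 of them rose with D3 (19.2% of all genes) and 19 fell (34.5%). In the wild type 17 rose (22.3%) and 8 fell (26.3%). The list was not uniform. Among genes of the unfolded protein response, HSPA5 (−0.11), HERPUD1 (0.04) and XBP1 (0.01) did not pass, while PDIA6 and EDEM1 (both −0.25) passed as negative. The stress factor genes DDIT3 (−0.13) and ATF3 (0.12) did not pass either. TRIB3 (chromosome 20, 380760 to 397559), a pseudokinase induced by ATF4, had the lowest interaction of the genes that passed with at least 2 FPKM in both genotypes. It had 26.3, 28.6 and 25.2 FPKM in the knockout with D3, against 43.7, 46.6 and 46.9 without, and 87.7, 88.0 and 89.0 in the wild type with D3, against 59.6, 54.0 and 59.6 without. The 4 groups did not overlap, with the knockout lower and the wild type higher with D3 (−1.36 ± 0.0995, adjusted p = 3.53e-10). ATF4 itself had 13.2, 12.9 and 13.7 FPKM in the knockout with D3, against 25.6, 25.5 and 26.8 without, and 32.3, 31.0 and 30.6 in the wild type with D3, against 29.1, 27.1 and 29.0 without. Its level in the knockout with D3 was 0.51 times that without, and the small wild-type rise passed narrowly (0.14, adjusted p = 0.0457; interaction −1.06, adjusted p = 4.04e-10). PSAT1, an aminotransferase of serine synthesis, had 44.2, 44.4 and 44.2 FPKM in the knockout with D3, against 128, 139 and 122 without, and 59.9, 53.2 and 54.3 in the wild type with D3, against 81.5, 86.9 and 80.6 without. Both genotypes fell and the knockout fell further (−0.96, adjusted p = 3.14e-09), as did STC2, a secreted glycoprotein (−1.29 in the knockout, −0.34 in the wild type, interaction −0.95).

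Fibrinogen, complement and other acute-phase genes rose with D3 in both genotypes and rose further in the knockout. Of 20 genes tested, 18 rose in the knockout (19.2% of all genes) and 17 in the wild type (22.3%), with medians of 1.21 and 0.54. The interaction was positive and passed for 16 of 20, where 5.19% of all genes did so, and negative for 1 (12.3%), with a median of 0.57. Both rescalings also gave 16 positive and 1 negative. FGG (chromosome 4, 154604136 to 154612656), the gamma chain of fibrinogen, had 38.2, 42.7 and 41.9 FPKM in the knockout with D3, against 9.55, 10.6 and 10.1 without. In wild-type cells FGG was low, with 2.34, 2.63 and 2.56 FPKM with D3, against 1.18, 1.06 and 1.18 without. The groups were separate in both genotypes, and the mean rose to 4.05 times in the knockout and 2.2 times in the wild type (1.21 ± 0.0899, adjusted p = 4.04e-10). CFD, complement factor D, had 97.0, 106 and 90.3 FPKM in the knockout with D3, against 34.8, 34.0 and 36.2 without, and 28.9, 30.0 and 30.6 in the wild type with D3, against 25.8, 23.8 and 24.0 without (1.18 ± 0.15, adjusted p = 2.64e-06). VTN, the adhesive plasma protein vitronectin, was higher with D3 in both genotypes (1.19 and 0.38, interaction 0.80), while CFB, complement factor B, rose in the knockout alone, with 10.9, 10.2 and 9.68 FPKM with D3, against 3.3, 3.52 and 4.09 without, and stayed under 1 FPKM in every wild-type library (1.17, adjusted p = 2.13e-09).

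Several secreted proteins outside that list were among the 15 largest positive interactions of genes with at least 2 FPKM in both genotypes. LCN2 (chromosome 9, 128149453 to 128153453), a lipocalin that binds bacterial iron carriers, had the largest positive interaction of the genes that passed with at least 2 FPKM in both genotypes. It had 23.0, 24.4 and 22.2 FPKM in the knockout with D3, against 9.84, 9.24 and 7.53 without, and 7.49, 9.69 and 8.59 in the wild type with D3, against 10.6, 10.4 and 9.66 without. The knockout with D3 stood clear of all other libraries, while the wild-type groups overlapped and their small fall passed here (adjusted p = 0.0327) but under neither rescaling (interaction 1.53 ± 0.126, adjusted p = 2.13e-09). SLPI (chromosome 20, 45252239 to 45254564), a protease inhibitor of airway secretions, had 67.7, 68.7 and 67.4 FPKM in the knockout with D3, against 23.4, 20.3 and 21.7 without, and 5.76, 6.92 and 5.91 in the wild type with D3, against 7.14, 5.73 and 4.58 without. It rose 3.12-fold in the knockout, and its wild-type groups overlapped (0.09, adjusted p = 0.491; interaction 1.51, adjusted p = 3.32e-08). CP, the copper-binding ferroxidase ceruloplasmin, had 43.7, 46.4 and 48.1 FPKM in the knockout with D3, against 14.5, 13.4 and 12.7 without, and 7.92, 9.83 and 9.5 in the wild type with D3, against 6.68, 7.03 and 6.49 without. CP rose in both genotypes, 3.4-fold and 1.35-fold (1.32 ± 0.102, adjusted p = 7.46e-10).

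Also among these 15 were PIP (1.26), the retinol carrier RBP4 (0.81), the phospholipid-binding apolipoprotein APOH of the acute-phase list (0.79), the matrix glycoprotein FN1 and the growth factor carrier IGFBP3. IGFBP3, which binds insulin-like growth factors, had 476, 513 and 483 FPKM in the knockout with D3, against 313, 325 and 325 without, and 304, 340.0 and 314 in the wild type with D3, against 363, 370.0 and 373 without. Its fall in the wild type (−0.21) did not pass under quantile normalization, and the interaction was 0.82 ± 0.0847 (adjusted p = 9.82e-08). IGFBP6, which prefers IGF2, went the other way, with 36.4, 41.2 and 37.4 FPKM in the knockout with D3, against 60.5, 62.3 and 65.0 without, and 72.3, 73.7 and 71.1 in the wild type with D3, against 66.1, 62.2 and 65.6 without (−0.86, adjusted p = 2.29e-06). Of 16 mucin and airway secretory genes, 6 had a positive interaction that passed (5.19% of all genes) and 1 a negative one (12.3%), with a median of 0.21. CEACAM1, an adhesion receptor, was one of them, with log2 differences of 1.28 in the knockout and 0.61 in the wild type. The transcription factor gene SOX4 (1.14 and 0.29, interaction 0.84) and the membrane protein gene TM4SF4 (0.92 and −0.16, interaction 1.08) were also among the 15, and the fall of TM4SF4 in the wild type passed under neither rescaling.

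Several genes were expressed mainly in 1 genotype. PRG4, the lubricating proteoglycan of joints, had 7.03, 7.36 and 7.75 FPKM in the knockout with D3, against 1.07, 1.3 and 1.32 without, and stayed under 1 FPKM in the wild type with D3 and without (1.89 ± 0.0842, adjusted p = 7.41e-14). STS, steroid sulfatase, had 11.9, 12.8 and 12.1 FPKM in the knockout with D3, against 5.95, 5.5 and 5.42 without, and 1.36, 1.38 and 1.35 in the wild type with D3, against 1.6, 1.63 and 1.56 without. The wild-type fall of STS (−0.14) did not pass under median-of-ratios scaling. CES1, a carboxylesterase with near-identical gene copies that may exchange reads, had 7.21, 7.97 and 7.55 FPKM in the knockout with D3, against 2.0, 2.05 and 2.22 without, and did not exceed 0.219 FPKM in any wild-type library. Its interaction was 1.37 on the log2(FPKM + 1) scale, while voom on recovered reads, which works on read counts, gave 0.66 (adjusted p = 0.526). COL11A1, a fibrillar collagen chain, was listed at 0 in all 6 knockout libraries and had 29.5, 27.7 and 28.6 FPKM in the wild type with D3, against 14.2, 13.3 and 13.3 without. For it the interaction of −1.02 is the wild-type rise alone, and it did not pass with voom (adjusted p = 0.342). PIK3IP1, an inhibitor of PI3-kinase, and SLCO4C1, an organic anion transporter, also rose in the wild type (1.22 and 0.98) and stayed under 1 FPKM in the knockout. The knockout difference of PIK3IP1 (0.12) did not pass here but passed as a rise under median-of-ratios scaling (0.16) and quantile normalization (0.19).

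Of 34 hypoxia response and glycolysis genes, 23 rose with D3 in the knockout (19.2% of all genes) and 11 in the wild type (22.3%). The interaction passed as positive for 11 (5.19% of all genes) and as negative for 2 (12.3%), with a median of 0.14. Rescaling gave 14 positive and 0 negative (median of ratios) or 12 and 1 (quantile). CA9 (chromosome 9, 35673928 to 35681159), a carbonic anhydrase of the cell surface and a classical HIF target, had the largest interaction of all genes that passed. It had 14.5, 18.5 and 13.7 FPKM in the knockout with D3, against 0.7, 1.03 and 0.933 without, and 1.22, 2.42 and 1.53 in the wild type with D3, against 0.912, 0.743 and 0.63 without. CA9 rose 17.5-fold in the knockout and 2.26-fold in the wild type, with no overlap in either (2.52 ± 0.196, adjusted p = 7.52e-10). PGK1, a glycolytic kinase, had 285, 306 and 276 FPKM in the knockout with D3, against 185, 186 and 191 without, and its wild-type groups overlapped, at 150.0, 154 and 153 with D3, against 160.0, 150.0 and 155 without (0.64, adjusted p = 1.14e-08). The glycolytic isomerase gene GPI (0.45 and 0) and BNIP3, which marks mitochondria for removal (0.54 and 0.07), rose in the knockout. Their wild-type differences did not pass here. The 2 genes that passed as negative were BNIP3L (−0.3) and ADM (−0.28). Other hypoxia genes of the list did not pass, among them VEGFA (−0.08), SLC2A1 (−0.1), NDRG1 (0.14) and PDK1 (−0.01).

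The promoter of CA9 is shown because CA9 carried the largest interaction and its induction in low oxygen is known to run through a HIF site with the core ACGTG. Capitals mark that core, which lies on the opposite strand, 13 bases before the transcript start (RefSeq, GRCh38.p14).
CA9, chr9:35673678-35673927, plus strand: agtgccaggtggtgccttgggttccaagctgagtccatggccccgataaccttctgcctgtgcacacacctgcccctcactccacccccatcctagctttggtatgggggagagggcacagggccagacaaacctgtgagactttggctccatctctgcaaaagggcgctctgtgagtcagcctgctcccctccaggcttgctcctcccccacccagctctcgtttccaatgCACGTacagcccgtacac
Such a short core is common: it was found in 2364 of the 9885 promoters (23.9%) and in 6 of the 11 promoters of hypoxia and glycolysis genes with a positive interaction that passed. A sterol response motif, TCACNCCAC, was in 0 of 17 promoters of sterol genes with a negative interaction that passed and in 83 of the 9885 (0.84%). An amino acid response motif, TGATGNAA, was in 0 of 13 promoters of stress response genes with a negative interaction that passed and in 134 of the 9885 (1.36%). No match says only that these letters are not in this window.

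NRF2 targets are of interest in A549 cells, which lack the NRF2 inhibitor KEAP1 in functional form and express these genes at a high level. Of 31 targets, 16 had a negative interaction that passed (12.3% of all genes) and 2 a positive one (5.19%), with a median of −0.17 and with 9 (median of ratios) and 10 (quantile) negative after rescaling. HMOX1, which degrades heme, had 232, 203 and 205 FPKM in the knockout with D3, against 386, 385 and 397 without, and its wild-type groups overlapped, at 120.0, 112 and 115 with D3, against 116, 108 and 112 without. HMOX1 fell in the knockout alone (−0.91 ± 0.0984, adjusted p = 1.92e-07). AKR1B1, aldose reductase, had 1160, 972 and 1060 FPKM in the knockout with D3, against 1390, 1310 and 1440 without, and 1650, 1490 and 1630 in the wild type with D3, against 1320, 1170 and 1270 without. Both AKR1B1 and TXNRD1, a thioredoxin reductase, fell in the knockout (−0.38 and −0.33) and rose in the wild type (0.35 and 0.14).

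Matrix genes split. Of 38 collagens, laminins and other matrix genes, 8 had a positive interaction that passed (5.19% of all genes) and 13 a negative one (12.3%), with a median of −0.02, or 12 and 11 under median-of-ratios scaling. COL4A1 and COL4A2, neighbouring genes that share a promoter region and encode the main chains of basement membrane collagen, moved together. COL4A2 (chromosome 13, 110307284 to 110513209) had 17.4, 17.8 and 16.1 FPKM in the knockout with D3, against 23.5, 23.7 and 24.4 without, and 75.2, 75.5 and 77.8 in the wild type with D3, against 53.3, 48.8 and 50.4 without (−1.03 ± 0.0713, adjusted p = 1.34e-10). COL4A1 (chromosome 13, 110148963 to 110307157) had 1.62, 1.71 and 1.51 FPKM in the knockout with D3, against 2.59, 2.63 and 2.54 without, and 14.7, 13.9 and 14.7 in the wild type with D3, against 9.52, 9.06 and 9.01 without (−1.05, adjusted p = 4.68e-12). Both fell in the knockout and rose in the wild type, as did LAMA3, a laminin chain (−0.39 and 0.46). FN1, fibronectin, went the opposite way, with 530.0, 536 and 503 FPKM in the knockout with D3, against 245, 245 and 263 without, and 88.2, 95.2 and 88.5 in the wild type with D3, against 85.2, 82.0 and 81.2 without. It rose 2.09-fold in the knockout and 1.09-fold in the wild type (0.93 ± 0.0604, adjusted p = 4.99e-11). MMP2, a gelatinase that cuts type IV collagen, rose in the wild type, with 49.1, 48.2 and 46.2 FPKM with D3, against 34.7, 31.8 and 33.1 without, and was at 1.40 to 1.85 FPKM in every knockout library (−0.57, adjusted p = 0.00022).

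**Figure D3:**
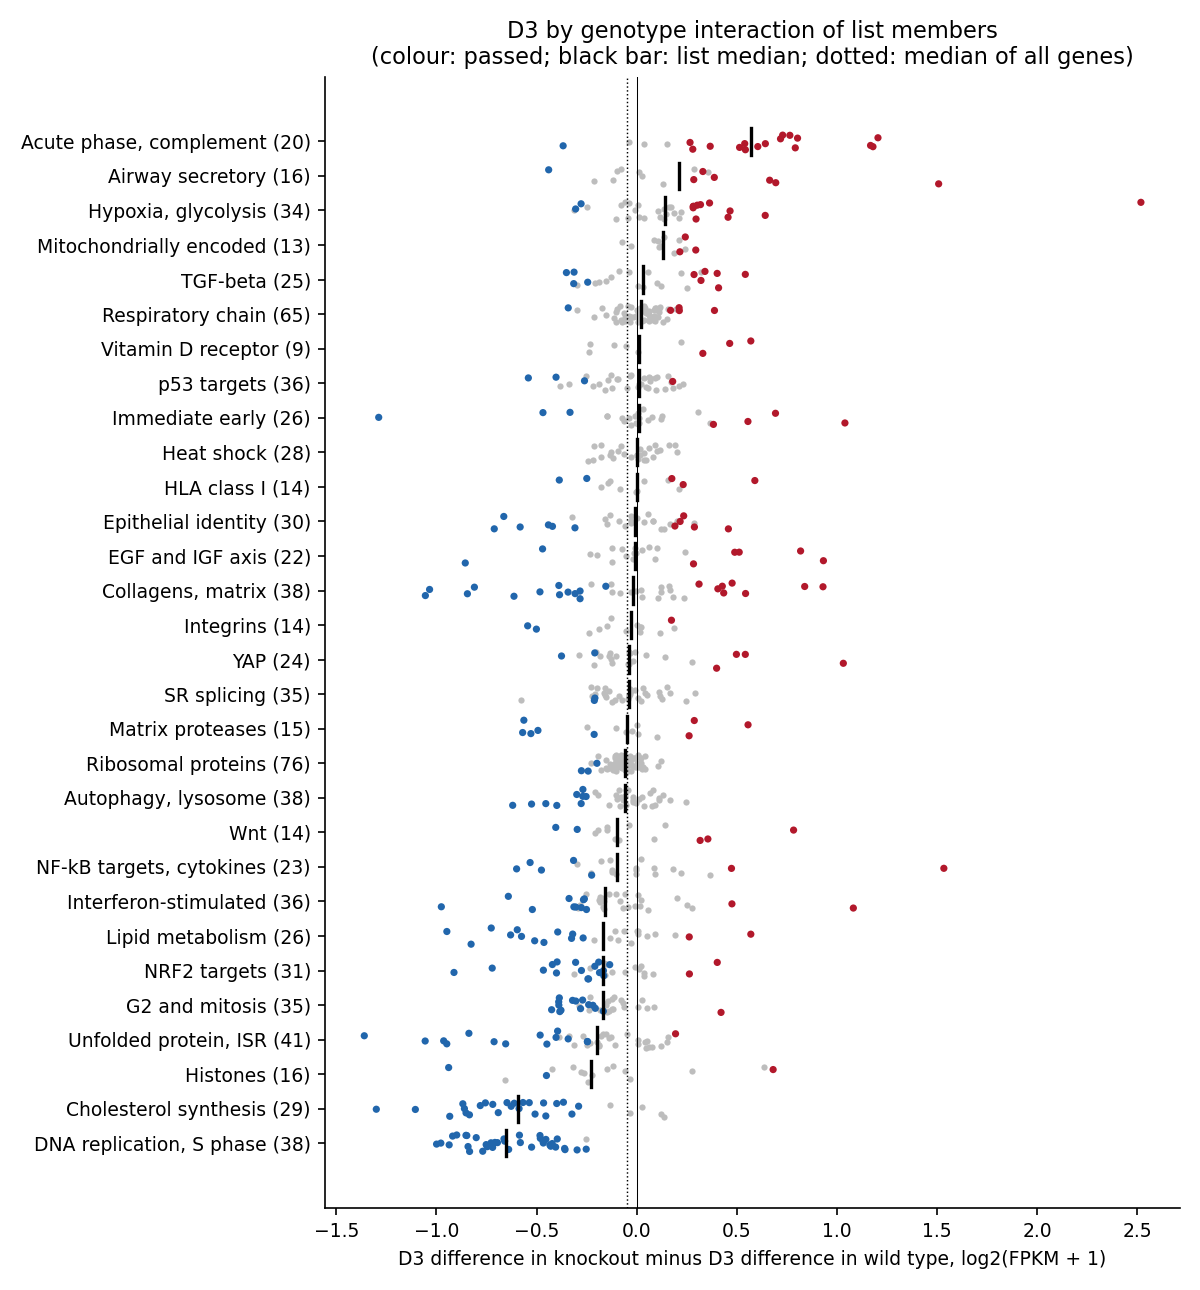
Interaction of each tested member of 30 gene lists, in log2(FPKM + 1), with the number of members in brackets; red points passed as positive, blue as negative, grey did not pass, and black bars are list medians. DNA replication (−0.65) and cholesterol synthesis (−0.59) have the lowest medians and acute-phase and complement genes the highest (0.57), against −0.05 over all genes (dotted line).

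Immediate early genes differed from one another. Of 26 genes, 4 had a positive interaction that passed (5.19% of all genes) and 3 a negative one, near the 12.3% of all genes. JUN, a subunit of AP-1, had 3.7, 4.72 and 3.78 FPKM in the knockout with D3, against 2.69, 2.14 and 2.91 without, and 4.3, 3.77 and 4.18 in the wild type with D3, against 6.6, 5.99 and 6.58 without. It rose in the knockout and fell in the wild type, with no overlap in either (1.04 ± 0.125, adjusted p = 1.03e-06). NR4A1, an orphan nuclear receptor, showed the reverse, with 2.65, 2.71 and 2.59 FPKM in the knockout with D3, against 3.16, 3.37 and 3.36 without, and 3.04, 3.27 and 2.9 in the wild type with D3, against 1.08, 0.901 and 0.912 without. The NR4A1 interaction was −1.29 ± 0.0875 (adjusted p = 1.03e-10), and the low group was the wild type without D3. FOSL1, another AP-1 subunit, fell in both genotypes and more in the wild type (−0.50 and −1.19, interaction 0.69). NT5E, the ecto-nucleotidase CD73 and a YAP target, had 8.45, 8.44 and 9.03 FPKM in the knockout with D3, against 5.96, 5.07 and 4.68 without, and 11.7, 11.7 and 11.0 in the wild type with D3, against 14.7, 15.9 and 15.8 without (1.03, adjusted p = 4.86e-10). TGFB2, a TGF-beta ligand, also rose in the knockout and fell in the wild type (0.21 and −0.34). Among 25 TGF-beta genes 6 passed as positive and 4 as negative, and among 24 YAP genes 4 and 2, beside 5.19% and 12.3% of all genes.

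The genes with opposite D3 differences and the largest smaller difference included OLFML2A, TRIB3, JUN, ZNF185, LOC105371592, LINC02870 and COL4A2. OLFML2A, an olfactomedin-like secreted glycoprotein, had 0.976, 1.04 and 0.956 FPKM in the knockout with D3, against 2.04, 2.27 and 2.47 without, and 5.69, 6.06 and 5.9 in the wild type with D3, against 3.33, 3.57 and 3.49 without (−1.34 ± 0.083, adjusted p = 2.4e-11). ZNF185, a LIM-domain protein of the actin cytoskeleton, had 1.69, 1.75 and 1.64 FPKM in the knockout with D3, against 1.02, 0.758 and 0.971 without, and 2.27, 2.67 and 2.35 in the wild type with D3, against 3.88, 3.85 and 4.26 without (1.04, adjusted p = 3.32e-08). No groups of these genes overlapped within a genotype, which largely follows from their choice by size. The long noncoding RNA LINC02870 had 7.5, 6.54 and 5.71 FPKM in the knockout with D3, against 11.5, 10.5 and 11.6 without, and 22.2, 23.9 and 23.7 in the wild type with D3, against 16.9, 16.9 and 15.7 without (−1.17, adjusted p = 5.93e-09). LOC105371592 was low throughout, with 1.19, 1.4 and 1.69 FPKM in the knockout with D3, against 1.89, 2.57 and 2.76 without, and 1.27, 1.29 and 1.17 in the wild type with D3, against 0.184, 0.123 and 0.366 without. Its interaction of −1.36 ± 0.242 (adjusted p = 0.000201) had the widest error of these 7. No source used here gives the strand setting of the counting, so reads of these loci and those of overlapping genes cannot be told apart.

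Other gene families were tested in the same way, beside 5.19% of all genes passing as positive and 12.3% as negative. None of 28 heat shock genes passed the interaction test, although 14 fell with D3 in the knockout (34.5% of all genes) and 13 in the wild type (26.3%). HSF2, a heat shock factor, had the largest value of that list (−0.24, adjusted p = 0.164). Of 35 genes for SR proteins, their kinases and other splicing regulators, 23 fell in the knockout (34.5% of all genes) and 21 in the wild type (26.3%). The interaction passed as negative for 2 (SRPK2 and TRA2B, both −0.21), neither of them after rescaling. The sign of the calls on that list turned with the scaling, with 3 positive and 0 negative under median of ratios and 2 and 1 under quantile normalization. Of 76 cytosolic ribosomal protein genes 3 passed as negative, and of 65 nuclear genes of the respiratory chain 4 as positive and 1 as negative. Of 13 mitochondrially encoded messenger RNAs 3 passed as positive (ND5, ND4 and COX3, 0.22 to 0.29), against 5 under median-of-ratios scaling and 1 under quantile normalization. Autophagy and lysosome genes passed as negative for 9 of 38, where 12.3% of all genes did, or 6 after either rescaling, among them CTSL, a lysosomal protease that fell in the knockout (−0.24) and rose in the wild type (0.38). Histone genes, whose replication-dependent messages lack the poly(A) tail used for enrichment, passed for 3 of 16, where 17.5% of all genes did.

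The same interaction was set beside its counterpart in magnetically exposed iR cells, 12 other libraries that share none with the unexposed set. The exposed libraries carry the value 2 in the exposure label H. Both came from 1 fit of all 30 libraries and share each gene's estimate of spread, so the tests are not independent. There 2164 genes passed (17.9%), 711 as positive (5.88%) and 1453 as negative (12%). Of the 2119 genes that passed in unexposed cells, 2061 had the same sign in exposed cells, 1356 passed in both with the same sign and 1 with the opposite sign. The 1356 are 64% of the calls in unexposed cells and 62.7% of those in exposed cells. Across all genes, which are not independent, the interactions correlated at 0.74. Both sets carry the same genotype labels, so a property of the lines and the loss of RSRP1 cannot be told apart in either.

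In exposed cells most of the leading genes passed again. Of the 37 S-phase genes 36 passed again, of the 24 sterol genes 24, of the 17 acute-phase genes 15, and of the 13 hypoxia genes 11, and the list medians in exposed cells were −0.62, −0.69, 0.45 and 0.15. All 15 of the largest positive and the 14 listed among the largest negative interactions of genes at 2 FPKM in both genotypes passed again with the same sign. Sizes differed for some: NR4A1 had −0.28 in exposed cells against −1.29 in unexposed cells, ATF4 −0.50 against −1.06, and GACAT2, a noncoding RNA, −0.69 against −1.24. LOC105371592 had −0.06 (adjusted p = 0.9) and LINC00513 −0.32 (adjusted p = 0.353) in exposed cells and did not pass there. RSRP1 itself passed in exposed cells (0.28, adjusted p = 0.0191) and not in unexposed cells. Whether any of these values differed between exposed and unexposed cells was not tested. The plot of interactions in both sets shows the shared signs and these departures.

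**Figure D4:**
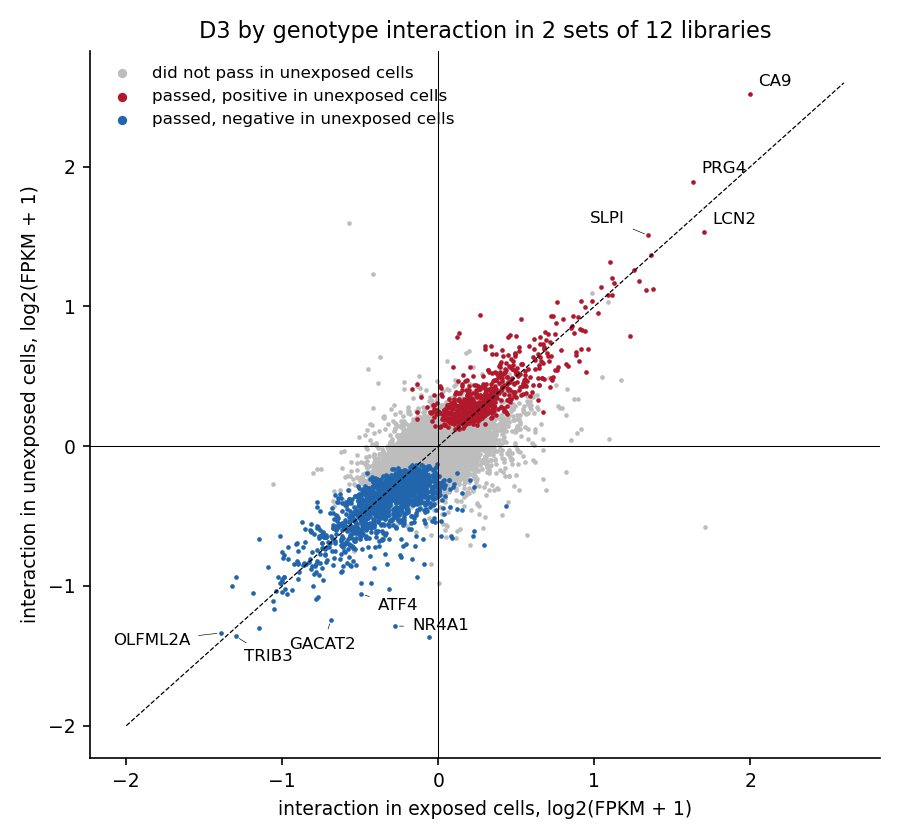
Each point is 1 of 12086 genes, with its interaction in exposed cells on the x axis and in unexposed cells on the y axis, both in log2(FPKM + 1), from 12 libraries each; the dashed line marks equal values and colours follow the test in unexposed cells. CA9, PRG4, LCN2 and SLPI are high in both sets and OLFML2A and TRIB3 low in both, while NR4A1, ATF4 and GACAT2 lie nearer to 0 in exposed cells.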

How the data were processed

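Poly(A)-enriched RNA of A549 cells was sequenced as paired-end reads, per the labels' protocols. Per the submitters' processing notes, the tools were HISAT2, HTSeq and fastp, without versions, and the build GRCh38. No source used here gives the annotation, the strand setting or the gene lengths. The authors' deposited table holds 1 FPKM value per gene (26801 genes) and library, with 6 further columns of values not used. FPKM corrects for depth and gene length but not for composition. The values came out as whole reads for all 26801 genes (tolerance 0.01), and replicates differed by 2.483 to 6.743 times counting noise.

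Values were taken as log2(FPKM + 1), which understates changes of low genes, over the 12086 genes (11150 protein-coding) with at least 1 FPKM in at least 3 of 30 libraries. All 10 groups were fitted in 1 limma model (version 3.58.1, R 4.3.3, mean-variance trend, 20 residual degrees of freedom), two-sided, Benjamini-Hochberg adjusted over all genes at 0.05. The fit was tested on simulated data. Groups followed the labels. The members, the 33 gene lists (1070 names, 1046 found by symbol, 2 through an NCBI identifier, 22 not matched; lists share members), the tests and the motifs were chosen with earlier results of these data known, so lists are described by counts and medians only. Genes were named by rule: RSRP1; the 15 largest positive and negative interactions with at least 2 FPKM in both genotypes; the 5 largest each in 1 genotype; up to 8 with opposite D3 differences; and up to 4 per list. Not every gene so named is described here. Positions and promoters (250 bases before the start) are from RefSeq, GRCh38.p14, read by gene. The alternatives were another pseudocount, other filters, only the 4 groups, median-of-ratios scaling, quantile normalization, a replicate block, robust moderation, each library left out and, added after seeing the data, voom on recovered reads and the exposed cells.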

Additional observations from a re-analysis of the deposited data

Results flagged for a closer look

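The D3 difference itself differed between the genotypes, by the interaction test, for 2119 genes. Among them, 207 had D3 differences that passed in both genotypes with opposite signs. The 7 genes listed here are among those whose smaller difference was largest. The interaction, as the D3 difference in the knockout minus that in the wild type, was 1.04 for JUN and 1.04 for ZNF185, both higher with D3 in the knockout and lower with D3 in the wild type. It was −1.36 for TRIB3, −1.34 for OLFML2A, −1.17 for LINC02870, −1.03 for COL4A2 and −1.36 for LOC105371592, all lower with D3 in the knockout and higher with D3 in the wild type. In exposed cells 6 of the 7 passed again with the same sign, and LOC105371592 did not. In every one of the 7, all 3 libraries with D3 lay on 1 side of all 3 without it in both genotypes. The 7 were picked for large D3 differences in both genotypes, so this separation largely follows from the choice. How many of all genes separate in this way was not counted, and 17.5% of all genes passed the interaction.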

How the results depend on the processing

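Every alternative left the total counts of genes within 1.5 times the values given, but the positive interactions alone (627) became 965 under median-of-ratios scaling and 967 under quantile normalization. Negative calls moved by over 1.5 times under median-of-ratios scaling for lists such as G2 and mitosis (6, against 14 here), interferon-stimulated genes (5, against 10) and NRF2 targets (9, against 16). The totals for the interaction (2119) were 2016 with a pseudocount of 0.1, 2200 with no filter, 1747 with at least 1 FPKM in each of the 12 libraries, 2200 with only the 4 groups fitted, 2016 under median-of-ratios scaling, 2052 under quantile normalization, 2126 with robust moderation and 2034 with voom, and 1795 to 2103 with 1 library left out. Of the 2119, 1676 passed under median-of-ratios scaling and 1675 under quantile normalization. The D3 counts ranged from 5800 to 6524 in the knockout and from 5133 to 5940 in the wild type with 1 library left out, and the RSRP1 interaction from 0.022 to 0.099. Replicate numbers did not visibly pair the samples. Each library's deviation from its group mean, over 4677 genes, was correlated with those of the other groups. Same-numbered libraries gave −0.552 to 0.562 over 18 pairs, with 5 over 0.1. Libraries of different numbers gave −0.725 to 0.588, and what such libraries had in common was not tested. The deviation correlated best with its own number in 4 of 18 cases. Deviations within a group cancel out, so some negative values are built in. A fit with the replicate block passed 2146 genes. Of 133 named genes other than RSRP1, 108 kept direction and call under each of the 21 settings that gave them a value, since the stricter filter left some untested. The other 25 changed their call under at least 1 setting, and COX3 was 0 under quantile normalization. The cause was not tested. Depth was even, so it limits mainly genes under about 1 FPKM, where the pseudocount compresses differences. With voom CD14, CDH5, CES1, COL11A1, MAP1LC3A and NR0B1 did not pass.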

Other observations

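Other gene groups held smaller or mixed differences. Of 36 interferon-stimulated genes 10 had a negative and 2 a positive interaction that passed, against 12.3% and 5.19% of all genes, with 5 (median of ratios) and 6 (quantile) negative after rescaling. ISG15, a ubiquitin-like protein, fell in the knockout, with 1.7, 1.78 and 2.09 FPKM with D3, against 4.63, 3.53 and 4.23 without, and its wild-type groups overlapped, at 6.15, 4.81 and 5.26 with D3, against 5.92, 4.55 and 4.12 without (−0.97 ± 0.141, adjusted p = 1.61e-05). IFITM1, which restricts virus entry, rose in the knockout instead, with 3.24, 3.36 and 3.12 FPKM with D3, against 0.405, 0.648 and 1.06 without (1.08, adjusted p = 0.000276). The classical HLA class I gene HLA-B also rose in the knockout, with 7.32, 7.26 and 7.2 FPKM with D3, against 3.95, 4.99 and 3.7 without, and was at 2.52, 2.28 and 2.33 in the wild type with D3, against 2.15, 2.17 and 2.24 without (0.59, adjusted p = 0.0044). TAPBP, which loads peptides onto HLA class I, rose in both genotypes and more in the wild type (0.17 and 0.56). HLA genes are near-identical in parts and may exchange reads.

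Epithelial genes were also mixed, with 5 positive and 6 negative interactions that passed among 30, beside 5.19% and 12.3% of all genes. CDH1, E-cadherin, rose in both genotypes and more in the wild type, with 39.1, 38.4 and 37.8 FPKM in the knockout with D3, against 25.7, 25.5 and 27.5 without, and 43.4, 45.5 and 43.2 in the wild type with D3, against 20.6, 20.2 and 18.5 without (−0.58 ± 0.0606, adjusted p = 1.08e-07). SNAI1, a repressor of CDH1, rose with D3 in the wild type, with 3.2, 2.59 and 2.93 FPKM with D3, against 1.37, 1.47 and 1.47 without, and stayed under 1 FPKM in the knockout (−0.66, adjusted p = 3.39e-05). CLDN2, a claudin of leaky tight junctions, rose more in the knockout (0.72 and 0.27). SFRP1, a secreted inhibitor of Wnt ligands, fell in both genotypes and more in the wild type, with 5.45, 5.83 and 5.74 FPKM in the knockout with D3, against 7.91, 8.27 and 8.15 without, and 9.02, 8.42 and 9.07 in the wild type with D3, against 21.8, 21.6 and 22.9 without (0.78, adjusted p = 1.03e-10). Among 9 genes tested of the vitamin D receptor and its known targets, 3 passed as positive (5.19% of all genes). CYP24A1, the hydroxylase that inactivates vitamin D, had 174, 184 and 183 FPKM in the knockout with D3, against 129, 132 and 127 without, and its wild-type difference did not pass, at 97.4, 97.9 and 93.8 with D3, against 99.3 to 109 without (0.57 ± 0.0547, adjusted p = 2.87e-08). CD68, a lysosomal glycoprotein on the list of leukocyte markers, fell in the knockout (−0.32) and rose in the wild type (0.26).

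The lists not yet described were mixed in sign, beside 5.19% of all genes passing as positive and 12.3% as negative. As positive and negative, 2 and 5 of 23 NF-kB and chemokine genes passed, 3 and 2 of 14 HLA class I pathway genes, 3 and 5 of 15 matrix protease genes and 1 and 2 of 14 integrin genes. Among 14 Wnt genes 3 and 2 passed, and among 22 genes of the EGF and IGF axis 5 and 2. Of the tested markers of other cell types, 0 of 3 fibroblast genes passed, and the endothelial gene CDH5, at most 1.29 FPKM in any of the 12 libraries, passed as positive but not with voom.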
